A study of Mus musculus with 24 samples.

Results

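Voltage-gated sodium channel genes of the brain were followed in the hippocampal CA1 region of mice during the first 3 days after status epilepticus (SE), a prolonged seizure. The set held 7 genes, found by symbol among the 18647 rows of the deposited count table: the alpha subunits Scn1a, Scn2a, Scn3a and Scn8a, and the beta subunits Scn2b, Scn3b and Scn4b. All 7 passed the filter on low counts and were tested among 18153 genes. Adult C57Bl/6N mice of at least 60 days and at least 20 g received 1 mg/kg scopolamine methyl nitrate and then 335 mg/kg pilocarpine, a muscarinic agonist that evokes SE. Seizures were stopped with 4 mg/kg diazepam 40 min after SE onset, and CA1 was dissected 6, 12, 24, 36 or 72 h later. Controls (Ctr) received saline in place of pilocarpine and the same other drugs, and were taken at 12, 36 and 72 h, so no control matched the 6 and 24 h samples. Each of the 8 groups held 3 libraries, 15 from SE and 9 from Ctr mice. Each library was made from bulk tissue and so averages neurons, glia and vessels.

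The pore of a neuronal sodium channel is one alpha subunit, a large protein that opens on depolarization and carries the current of the action potential upstroke. In the forebrain, Scn1a encodes Nav1.1, which is prominent in fast-spiking interneurons. Scn2a and Scn8a encode Nav1.2 and Nav1.6, the main channels of the axon initial segment of excitatory neurons, and Scn3a encodes Nav1.3, which is abundant before birth and low in the adult rodent brain. Beta subunits are small single-pass proteins with an immunoglobulin-like domain that set channel gating and surface density. The products of Scn2b and Scn4b attach to the alpha subunit by a disulfide bond and that of Scn3b without one.

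The genes lie in 3 regions of the mouse genome (GRCm39). Scn3a (chr2:65287462-65397971, minus strand), Scn2a (chr2:65451102-65597795, plus strand) and Scn1a (chr2:66101122-66271572, minus strand) form a cluster on chromosome 2. Scn3b (chr9:40179378-40203052), Scn2b (chr9:45029080-45041368) and Scn4b (chr9:45049595-45065452) are on the plus strand of chromosome 9, with Scn4b starting just after the end of Scn2b. Scn8a (chr15:100767739-100943819, plus strand) stands alone on chromosome 15. Their Ensembl identifiers in the count table were ENSMUSG00000064329.14 (Scn1a), ENSMUSG00000075318.14 (Scn2a), ENSMUSG00000057182.16 (Scn3a), ENSMUSG00000023033.15 (Scn8a), ENSMUSG00000070304.13 (Scn2b), ENSMUSG00000049281.17 (Scn3b) and ENSMUSG00000046480.7 (Scn4b).

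Scn2a is a textbook target of REST, a repressor that binds the RE1 element and holds neuronal genes silent outside neurons, and Rest itself was measured here. Within 5000 bases of each gene start, on both strands, the genome was searched for TTCAGCACC, any 2 bases and then GGACAG, the conserved part of that element, allowing at most 1 mismatch. Among the 7 genes, 2 held a match, shown here with 3 bases on each side. Capitals mark the fixed positions of the pattern, matched or not.
Scn2a (GRCm39, chr2:65450305-65450327, plus strand, 786 bases before the gene start, exact): gctTTCAGCACCacGGACAGcac
Scn3b (GRCm39, chr9:40181037-40181059, minus strand, 1670 bases inside the gene, 1 mismatch): tggCTCAGCACCacGGACAGtag
The Scn3b match differed by T1C, with positions counted from 1 at the first letter of the searched pattern. Windows of the same length around all 18552 annotated genes of the table held such a match in 1.09% of cases and an exact one in 0.28%. A match is a stretch of letters and not a measured binding site.

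The promoters of the member with the largest fall at 12 h after SE, Scn2b, and of the most abundant alpha subunit by length, Scn8a, are shown because the printed windows differed in base composition. Both are the 250 bases before the start given by RefSeq (GRCm38.p6), and the capitals in Scn8a mark GCGGGGGCG, the letters of the Egr motif.
Scn2b (chr9:45117626-45117875, plus strand): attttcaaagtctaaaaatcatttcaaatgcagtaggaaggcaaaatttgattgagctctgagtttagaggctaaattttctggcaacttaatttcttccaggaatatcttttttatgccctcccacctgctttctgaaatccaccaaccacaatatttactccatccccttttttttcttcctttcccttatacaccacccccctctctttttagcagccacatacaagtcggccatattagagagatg
Scn8a (chr15:100870395-100870644, plus strand): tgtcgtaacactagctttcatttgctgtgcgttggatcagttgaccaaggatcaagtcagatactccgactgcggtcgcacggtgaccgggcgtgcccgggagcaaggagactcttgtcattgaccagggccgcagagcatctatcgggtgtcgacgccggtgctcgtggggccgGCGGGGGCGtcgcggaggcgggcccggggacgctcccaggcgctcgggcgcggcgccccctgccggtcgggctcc
The Scn2b stretch held 38.4% G or C and 1 CpG, against medians of 52.4% and 6 over 32851 promoters, and that of Scn8a held 68% and 30. RefSeq gives a further Scn8a start, whose window (chr15:100936021-100936270) held 53.2% and 9, so the contrast applies to the printed window. RefSeq promoters were found for 5 of the 7 genes, in 7 windows, and not for Scn3a and Scn3b. Of the motifs searched on both strands in 300-base windows, only the Egr letters occurred in a member, once, in Scn8a, and they occurred in 2.91% of all promoters. The letters TGACGTCA (CRE, 1.79% of promoters), TGANTCA (AP-1, 7.81%), TTCAGCACC (0.371%) and GGACAGC (6.56%), the last 2 from either side of the RE1 pattern, did not occur in the 7 windows.

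Total counts per library ranged from 2663936 to 30133731 with a median of 13521590, and the lowest count of a member in a library was 42, for Scn4b. The shallowest group was Ctr 72 h (2663936 to 11680209), so its values carry the largest counting error. Neuronal and CA1 pyramidal cell markers were present in every group and none was at 0. In 6 libraries the summed level of 10 sensory ganglion neuron genes was above 100 CPM (counts scaled to the TMM library size) and reached 235 to 1270, against at most 55.9 in the other 18. These were Ctr 72 h replicate 2, SE 6 h replicate 3, SE 12 h replicate 1, SE 36 h replicate 3 and SE 72 h replicates 1 and 2. The summed level of 5 Schwann cell genes was also highest there, at 140 to 484 CPM, against at most 112 CPM elsewhere. Since Scn4b and Scn1a were highest there within their groups, results for these genes are given with and without the 6 libraries.

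Per length of exon, the beta subunit Scn2b was the most abundant member in control CA1. In Ctr 12 h its level was 72.5 ± 14.4 CPM per kilobase of exon (SD, n = 3), followed by Scn3b with 33.4 ± 11.7, Scn8a with 25.3 ± 5.4, Scn2a with 22.9 ± 0.955 and Scn1a with 9.16 ± 0.576. Scn3a (3.41 ± 0.14) and Scn4b (3.07 ± 0.573) were lowest. Neighbours from Scn3b to Scn2a, and Scn3a and Scn4b, differed by less than their SDs added together at 12 h. In Ctr 36 h the order was the same and each neighbouring pair differed by more than its SDs added together, with Scn3b at 48 ± 3.77 and Scn8a at 27.2 ± 1.88 CPM per kilobase.

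**Figure D1:**
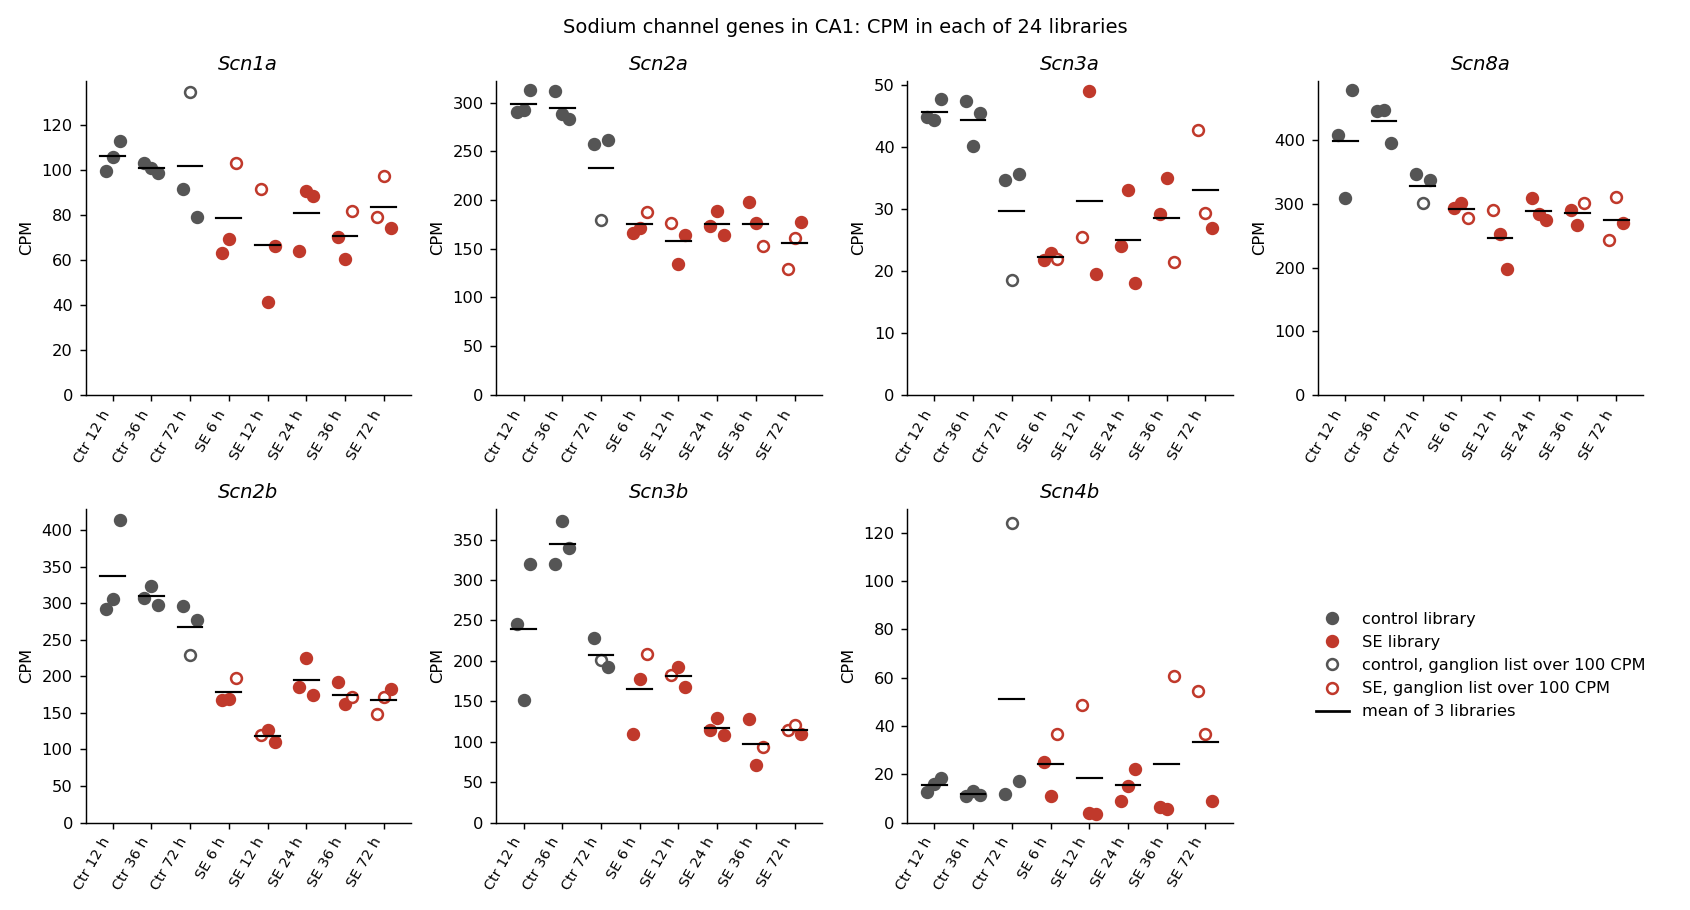
Level of each of the 7 sodium channel genes in every library, in CPM on a linear axis from 0, by group along the horizontal axis. Points are libraries, open where the ganglion gene sum was above 100 CPM, and bars are group means. Scn2b sat between 110 and 127 CPM at 12 h after SE against 292 to 414 in its controls, while Scn4b scattered from 3.35 to 124 CPM without separating the groups.

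At 12 h after SE, 4 of the 7 genes fell against Ctr 12 h and none rose, where 18.1% of all genes tested fell and 20.4% rose (edgeR quasi-likelihood test, adjusted p at most 0.05). All 4 (Scn1a, Scn2a, Scn8a and Scn2b) also passed the limit for a differentially expressed gene (DEG), a log2 fold change (Log2FC) of at least 0.66 in size, which 11.4% of genes passed downward. Without Ctr 12 h replicate 3, the control with the high CA3 sum, 2 members were DEGs. The median Log2FC of the 7 was -0.69, against 0.01 over all genes. Their SE libraries all lay below all Ctr libraries in these 4 genes, a separation that 23.2% of all genes showed.

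At 36 h, 4 genes fell (Scn2a, Scn8a, Scn2b and Scn3b) and none rose, against 14.5% of all genes falling and 17.2% rising. Of these, 3 were DEGs (8.91% of genes downward). The median Log2FC of the 7 was -0.65 with a median of 0 over all genes, and 6 of 7 genes, all but Scn4b, had every SE library below every control library (26.2% of all genes).

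At 72 h, 3 genes fell (Scn2a, Scn2b and Scn3b), against 9.41% of all genes falling and 18.7% rising, and 2 were DEGs (4.21% downward). The median Log2FC of the 7 was -0.26 and that of all genes 0.1. The groups did not overlap for these 3 genes, as for 13.4% of all genes.

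Against the mean of the 3 control groups, 5 members fell at 6 h (16.7% of all genes fell) and 5 at 24 h (17.5%). The DEGs among them were Scn3a and Scn2b at 6 h, where 6.21% of genes were DEGs downward, and Scn3b at 24 h (9.21%). All SE libraries lay below all 9 controls for Scn2b at 6 h (9.27% of genes) and for Scn2b and Scn3b at 24 h (10%). The comparisons at 6 and 24 h share all their controls, also with those at 12, 36 and 72 h. Mice were kept under a light-dark cycle of 12 h, and the hour of day at sampling is not given. Time of day may therefore differ within these comparisons and between SE 6, 12 and 24 h, and its part was not tested.

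**Figure D2:**
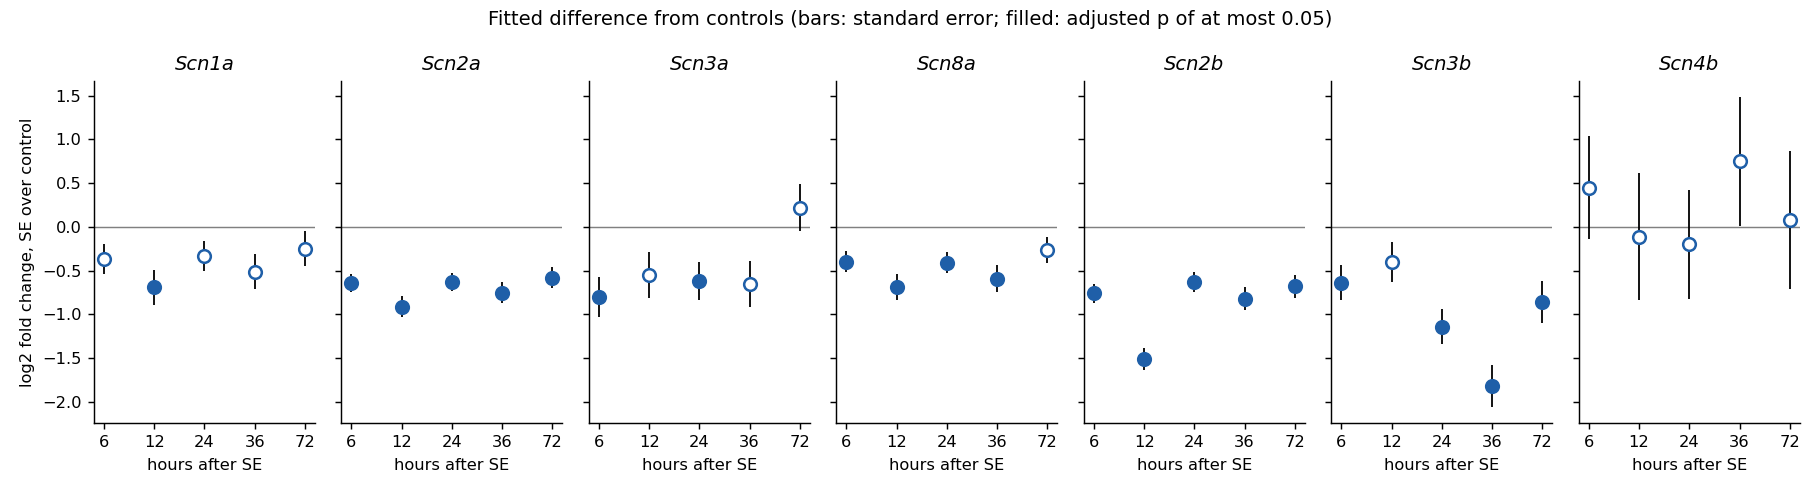
Log2 fold change of SE against control for the 7 genes at each of the 5 times (equally spaced along the horizontal axis), with bars of 1 standard error and filled points at an adjusted p of at most 0.05. The contrasts at 6 and 24 h use the mean of the 3 control groups. The lowest point of Scn2b is at 12 h (-1.51) and that of Scn3b at 36 h (-1.82), while the bars of Scn4b are the widest.

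Summed levels of neuron and glia markers also differed in some of the same comparisons. The summed level of 9 CA1 pyramidal cell genes was 6280 to 10500 CPM in Ctr 12 h and 4050 to 5160 CPM in SE 12 h. It was 8930 to 10100 CPM in Ctr 36 h against 3490 to 4240 in SE 36 h, and 5940 to 7270 in Ctr 72 h against 3430 to 4980 in SE 72 h. The summed level of the 7 sodium channel genes was 1230 to 1700 CPM in Ctr 12 h and 727 to 936 in SE 12 h, and 1190 to 1270 in Ctr 72 h and 812 to 926 in SE 72 h. Of the 9 pyramidal genes, 2 fell at 12 h, 5 at 36 h and 3 at 72 h, where 18.1%, 14.5% and 9.41% of all genes fell. Of 12 genes of neurons in general, 5, 4 and 6 fell at these times and none rose, with a summed level of 9100 to 11500 CPM in controls, 7020 to 7910 CPM in SE 12 h, 7220 to 8670 CPM in SE 36 h and 6540 to 7080 CPM in SE 72 h. At 6 h, where 5 sodium channel genes and 16.7% of all genes fell, 0 of the 12 fell and 1 rose. Their sum (8310 to 10900 CPM) overlapped the controls, while 2 of the 9 pyramidal genes fell. At 24 h, 3 of the 12 and 2 of the 9 fell, where 17.5% of all genes did. The pyramidal sum was 4550 to 5780 CPM in SE 6 h and 4010 to 4240 CPM in SE 24 h. Both ranges lay below all 9 controls (5940 to 10500 CPM). The summed level of 10 microglia genes was 374 to 463 CPM in the 9 controls, 311 to 440 CPM in SE 12 h, 771 to 871 CPM in SE 36 h and 1640 to 2350 CPM in SE 72 h, where all 10 rose. That of 8 astrocyte genes was 4890 to 6000 CPM in controls, 6300 to 9180 CPM in SE 12 h, 6660 to 9210 CPM in SE 36 h and 12900 to 14400 CPM in SE 72 h. Of these 8 genes, 2 rose and 2 fell at 12 h, 3 rose and 4 fell at 36 h, and 4 rose and 0 fell at 72 h. At 24 h, 2 rose and 5 fell. At 6 h the summed level of 8 oligodendrocyte genes was 5700 to 6040 CPM, above all 9 controls (2540 to 4560 CPM), and 4 rose and 0 fell. That of 8 vascular genes was 444 to 505 CPM against 295 to 420 CPM in controls, and 4 rose and 2 fell. The 10 microglia genes summed to 273 to 318 CPM at 6 h, and 2 rose and 5 fell. In bulk tissue, fewer cells of a type and less RNA per cell cannot be told apart, and the part of these markers in the sodium channel values was not tested.

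Among the alpha subunits, Scn2a fell in all 5 comparisons with controls. Its controls read 290, 292 and 313 CPM at 12 h, 312, 288 and 283 CPM at 36 h, and 258, 180 and 262 CPM at 72 h. After SE it read 166, 171 and 188 CPM at 6 h, 176, 134 and 164 at 12 h, 173, 189 and 164 at 24 h, 198, 176 and 153 at 36 h, and 129, 161 and 177 at 72 h. Every SE library was below every control of its own time, and the highest values at 6 and 24 h overlapped only with the lowest control, Ctr 72 h replicate 2. Scn2a fell 1.88-fold at 12 h (Log2FC -0.91, standard error (s.e.) 0.12, adjusted p = 9.75e-06), 1.68-fold at 36 h (the same 3 quantities in the same order, here and below: -0.75, 0.12, 7.85e-05) and 1.49-fold at 72 h (-0.58, 0.12, 0.00134). It also fell 1.56-fold at 6 h (adjusted p = 6.42e-05) and 1.55-fold at 24 h (5.07e-05). Without the 6 libraries high in ganglion genes, its Log2FC was between -1 and -0.56 over the 5 contrasts and each kept its call.

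Scn8a, the Nav1.6 gene, read 409, 309 and 479 CPM in Ctr 12 h and 291, 253 and 197 CPM in SE 12 h. At 36 h it read 446, 448 and 396 CPM in controls and 290, 267 and 301 CPM after SE. The groups were separate at both times. It fell 1.62-fold at 12 h (Log2FC -0.69, s.e. 0.15, adjusted p = 0.00096) and 1.5-fold at 36 h (-0.59, 0.15, 0.00399). At 72 h, one SE library lay inside the control range (347, 302 and 337 CPM against 244, 311 and 270 CPM) and the Log2FC of -0.26 did not pass the test (adjusted p = 0.201). At 6 h (294, 302 and 278 CPM) and 24 h (310, 284 and 274 CPM) the SE values met the lowest control. The falls there were 1.32-fold at both times (adjusted p = 0.0133 and 0.0113), and the calls were lost without SE 6 h replicate 3 (at 6 h, Log2FC -0.36) and without SE 24 h replicate 3 (at 24 h, -0.37).

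Scn1a, the Nav1.1 gene, read 99.6, 106 and 113 CPM in Ctr 12 h and 91.6, 41.5 and 66.4 CPM in SE 12 h, with no overlap but a wide spread after SE. Its Log2FC at 12 h was -0.69 (s.e. 0.2, adjusted p = 0.0103, 1.61-fold lower). Leaving out SE 12 h replicate 2, the library at 41.5 CPM, ended the call, with a Log2FC of -0.43. At 36 h its controls read 103, 101 and 98.8 CPM and the SE libraries 70.2, 60.3 and 82 CPM, all lower, with a Log2FC of -0.51 that did not pass (adjusted p = 0.0581). At 72 h the groups overlapped (91.6, 135 and 79.1 CPM against 79.2, 97.2 and 74.3 CPM; Log2FC -0.25, adjusted p = 0.393). At 6 h (63.2, 69.5 and 103 CPM) and 24 h (64, 90.6 and 88.4 CPM), Log2FCs of -0.37 and -0.33 did not pass (adjusted p = 0.0816 and 0.118). Without SE 6 h replicate 3, the library at 103 CPM, the value at 6 h was -0.62 and passed (adjusted p = 0.0161).

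In each of the 5 groups with a library high in ganglion genes, Scn1a was higher in that library, or in both at 72 h after SE, than in the others. Without the 6 libraries its Log2FC was -1 at 12 h (adjusted p = 0.000331), and the values at 6 h (-0.56, 0.011) and 36 h (-0.62, 0.0112) also passed. At 72 h it remained outside the test, at -0.21 (adjusted p = 0.596). Of 10 interneuron markers, 2 rose and 2 fell at 12 h. Their summed level was 1030 to 1130 CPM in Ctr 12 h and 1150 to 1660 CPM in SE 12 h, without overlap. At 6 h and at 24 h, 4 rose and 1 fell. At 36 h, 1 rose and 1 fell (911 to 934 CPM in Ctr 36 h, 1080 to 1250 CPM in SE 36 h). At 72 h, 1 rose and 5 fell (728 to 1130 CPM in Ctr 72 h, 657 to 962 CPM in SE 72 h).

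Scn3a, the Nav1.3 gene, was low throughout. Its lowest group mean after SE was at 6 h, with 21.8, 22.9 and 21.9 CPM, all below 8 of the 9 controls. It fell there 1.74-fold against the mean of controls (Log2FC -0.8, s.e. 0.23, adjusted p = 0.00826), and 1.54-fold at 24 h (24, 33.1 and 18 CPM; adjusted p = 0.032). The call at 24 h was lost when any one of 4 libraries was left out (Ctr 72 h replicates 1 and 3, SE 24 h replicates 1 and 3), with Log2FCs of -0.57, -0.58, -0.59 and -0.43 in that order. At 12 h it read 44.9, 44.3 and 47.8 CPM in controls and 25.4, 49.1 and 19.5 CPM after SE. One SE library was above all its controls, and the Log2FC of -0.55 did not pass (adjusted p = 0.106). At 36 h the groups were separate (47.5, 40.1 and 45.5 CPM against 29.2, 35 and 21.5 CPM), with a Log2FC of -0.65 and an adjusted p of 0.0667. At 72 h the ranges overlapped (34.6, 18.6 and 35.6 CPM against 42.8, 29.4 and 27 CPM; Log2FC 0.22, adjusted p = 0.585). Without Ctr 72 h replicate 2, whose Scn3a value was the lowest of the controls, the Log2FC was -0.59 at 12 h (adjusted p = 0.0326) and -0.64 at 36 h (0.0257), both then past the test, and -0.11 at 72 h. Without SE 12 h replicate 2, the library at 49.1 CPM, it was -1.01 at 12 h (adjusted p = 0.00357).

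Among the beta subunits, Scn2b had the largest fall of the 7 members at 12 h. It read 292, 306 and 414 CPM in Ctr 12 h, 307, 323 and 298 CPM in Ctr 36 h, and 296, 229 and 277 CPM in Ctr 72 h. After SE it read 168, 169 and 198 CPM at 6 h, 120, 127 and 110 CPM at 12 h, 186, 225 and 175 CPM at 24 h, 192, 162 and 171 CPM at 36 h, and 148, 171 and 183 CPM at 72 h. None of the 15 SE libraries reached the lowest of the 9 controls. Scn2b fell 2.84-fold at 12 h (Log2FC -1.51, s.e. 0.13, adjusted p = 1.13e-07), which ranked 69 of 18153 genes by p. The fall was 1.77-fold at 36 h (-0.82, 0.13, 7.84e-05) and 1.6-fold at 72 h (-0.68, 0.13, 0.000677), and 1.7-fold at 6 h (2.6e-05) and 1.55-fold at 24 h (0.000131).

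The level of Scn2b moved between SE times in opposite directions. From 6 to 12 h it fell 1.5-fold (Log2FC -0.59, s.e. 0.13, adjusted p = 0.0159), where 2.5% of genes fell, and all 12 h libraries were below all 6 h libraries. From 12 to 24 h it rose 1.64-fold (0.72, 0.13, 0.00285), where 5.24% of genes rose, again without overlap. No other member passed at either step with edgeR, where DESeq2 passed 2 members in all from 12 to 24 h. The fall from 6 to 12 h was not past the test without SE 6 h replicate 3 (Log2FC -0.5), nor without the 6 ganglion-high libraries (Log2FC -0.51, adjusted p = 0.0868). The rise from 12 to 24 h was 0.72 without them (adjusted p = 0.00465).

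Scn3b had its largest fall at 36 h. It read 245, 152 and 320 CPM in Ctr 12 h and 183, 192 and 167 CPM in SE 12 h, and the groups overlapped (Log2FC -0.4, s.e. 0.23, adjusted p = 0.178). Without Ctr 12 h replicate 2, the control at 152 CPM, the Log2FC was -0.61 and passed (adjusted p = 0.0371). At 36 h it read 320, 373 and 340 CPM in controls and 128, 70.8 and 93.6 CPM after SE. All SE values were well below the controls, and Scn3b fell 3.53-fold (-1.82, 0.24, 8.4e-06), the largest fall of any member in the 5 comparisons with controls. At 72 h it read 228, 201 and 192 CPM in controls and 114, 120 and 109 CPM after SE, again with no overlap, and fell 1.81-fold (-0.86, 0.24, 0.0102). At 6 h (110, 178 and 208 CPM) it fell 1.56-fold (adjusted p = 0.0141), a call lost without SE 6 h replicate 1, the library at 110 CPM (Log2FC -0.42). At 24 h (114, 129 and 108 CPM) it fell 2.21-fold (-1.14, 0.2, 0.000163). These SE 24 h values were all below those of SE 12 h, but the Log2FC from 12 to 24 h of -0.63 did not pass (s.e. 0.23, adjusted p = 0.0942). Without the 6 ganglion-high libraries, the Log2FC was -1.79 at 36 h (adjusted p = 0.00037) and -0.95 at 72 h, where 1 SE and 2 Ctr libraries remained and the test was not passed (0.128).

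The control level of Scn3b was itself variable, averaging 239 ± 83.9 CPM at 12 h, 344 ± 27 CPM at 36 h and 207 ± 18.7 CPM at 72 h (SD, n = 3 each). None of the 7 genes passed in the 3 comparisons between control times with edgeR, DESeq2 or limma-voom. Of all genes, 0% passed in Ctr 36 h against Ctr 12 h with edgeR, where DESeq2 gave 3 genes, limma-voom 0 and 648 had an unadjusted p under 0.05. In Ctr 72 h, 1.23% passed against Ctr 12 h and 3.31% against Ctr 36 h. An unadjusted p under 0.05 was found for 1 member in Ctr 36 h against Ctr 12 h (Scn3b), for 3 in Ctr 72 h against Ctr 12 h (Scn2a, Scn3a and Scn2b, among 3500 of the 18153 genes) and for 4 in Ctr 72 h against Ctr 36 h (Scn2a, Scn3a, Scn8a and Scn3b, among 3879). When only the groups compared entered the fit, 5 members passed in Ctr 72 h against Ctr 36 h, where 20.1% of all genes did, and 1 passed in Ctr 36 h against Ctr 12 h, where 3.25% did.

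Whether the SE effect itself changed with time was tested by the difference of 2 time-matched contrasts. For Scn2b the effect was weaker at 36 h than at 12 h by 0.69 log2 units (s.e. 0.18, adjusted p = 0.0419) and weaker at 72 h than at 12 h by 0.83 (0.19, 0.0038). For Scn3b the effect was stronger at 36 h than at 12 h, with a difference of -1.42 (0.33, 0.0246), and the difference between 72 and 12 h (-0.45, 0.33, 0.344) did not pass. Of all genes, 3.83% passed between 36 and 12 h and 22.2% between 72 and 12 h. Between 72 and 36 h 5.35% passed and no member did with edgeR, DESeq2 or limma-voom, although 2 members (Scn3a and Scn3b) were among the 4042 genes with an unadjusted p under 0.05. The Scn2b difference at 36 h kept its call in 4 of 13 fits that each left out 1 library, with values of 0.51 to 0.78. It was lost without replicate 2 or 3 of Ctr 12 h, any replicate of Ctr 36 h, replicate 2 or 3 of SE 12 h, or replicate 1 or 3 of SE 36 h. The Scn3b difference kept its call in 9 of 13 fits (-1.68 to -1.18) and lost it without Ctr 12 h replicate 2, Ctr 36 h replicate 2 or 3, or SE 36 h replicate 3. That of Scn2b at 72 h kept its call in all 12. From 24 to 36 h and from 36 to 72 h no member passed with any of these tools, nor at an unadjusted p under 0.05, where 0.87% and 10.3% of all genes passed adjusted.

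Scn4b had the largest spread. It read 12.6, 15.8 and 18.4 CPM in Ctr 12 h, 11, 13 and 11.3 CPM in Ctr 36 h, and 12, 124 and 17.2 CPM in Ctr 72 h. After SE it read 25.2, 11 and 36.6 CPM at 6 h, 48.8, 3.78 and 3.35 CPM at 12 h, 8.81, 15 and 22.3 CPM at 24 h, 6.45, 5.6 and 60.6 CPM at 36 h, and 54.6, 36.7 and 8.96 CPM at 72 h. The groups overlapped in each comparison with controls, and no Log2FC passed (-0.11 at 12 h, s.e. 0.73, adjusted p = 0.92). The 6 ganglion-high libraries held the 6 highest values, 36.6 to 124 CPM, against 3.35 to 25.2 CPM in the other 18. Without them, Scn4b fell at 12 h with a Log2FC of -2.13 (adjusted p = 0.000569), from 12.6 to 18.4 CPM in controls to 3.78 and 3.35 CPM. It then rose from 12 to 24 h (2.11, 0.00348) and was at -0.97 at 36 h (0.0648). With the log2 ganglion sum in place of the RUVr factor and all libraries kept, the 12 h value was -1.96 (adjusted p = 0.000901). These alternatives were chosen after the data were seen.

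**Figure D3:**
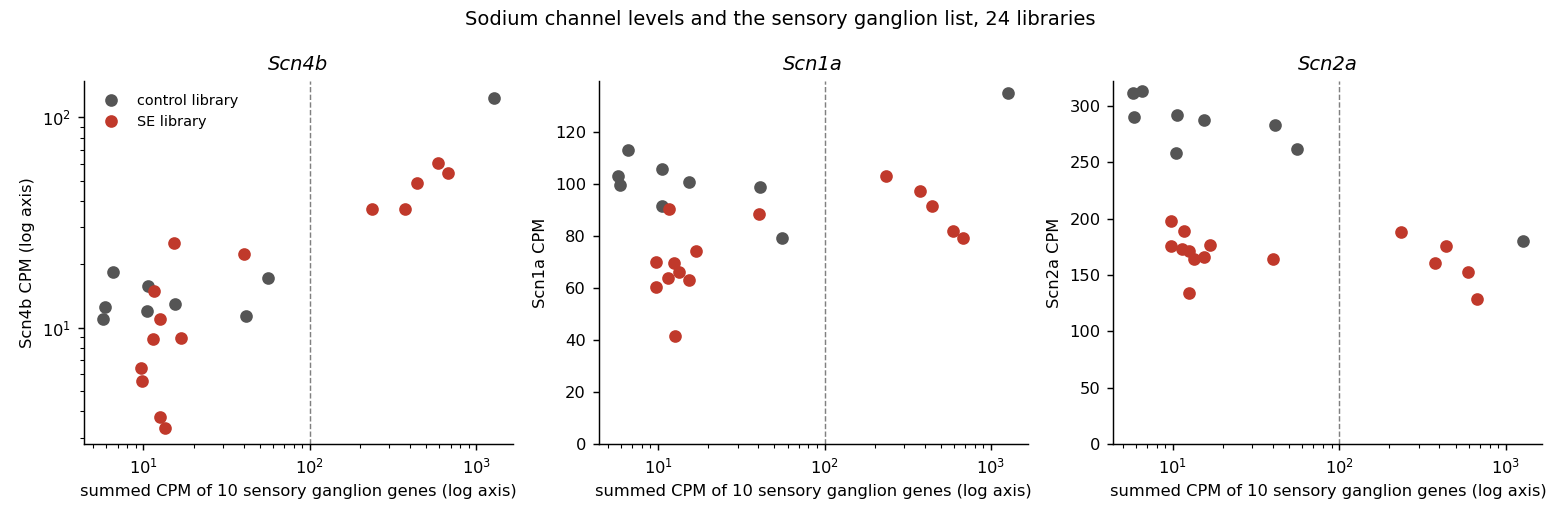
Level of Scn4b (vertical axis, CPM, log axis) and of Scn1a and Scn2a (CPM, linear axes from 0) against the summed level of 10 sensory ganglion genes (horizontal axis, CPM, log axis) in each of the 24 libraries. Points are libraries, and the 6 right of the dashed line at 100 CPM hold the 6 highest Scn4b values, 36.6 to 124 CPM.

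The sodium channel genes of peripheral neurons were high in the same 6 libraries. Scn10a, the Nav1.8 gene of nociceptors, read 60.6 to 355 CPM there and at most 12 CPM elsewhere. Scn9a (Nav1.7) read 33.5 to 163 CPM against at most 9.28, and Scn11a (Nav1.9) 26 to 133 CPM against at most 6. Scn7a, the gene of a sodium-sensing channel relative also found in Schwann cells, read 35.2 to 183 CPM against at most 10.5. The Scn1a and Scn4b values without these libraries are given above, and where the RNA of the ganglion genes came from was not tested.

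The numbers in the sample labels fell into 3 ranges (92 to 104, 109 to 122 and 162 to 169), and at 72 h no range held both SE and Ctr mice. The SE 24 h mice were all in the lowest range, which held none of the 9 Ctr mice. At both times, label range and SE cannot be told apart within the libraries compared. With the range as a term in the fit, which draws on the other groups, Scn2a, Scn2b and Scn3b passed at 24 h (-0.58, -0.66 and -1.13) and Scn3a and Scn8a did not, and at 6 h Scn8a and Scn3b no longer passed. No member passed at 72 h, where 15.4% of all genes did, and the Log2FC was -0.4 for Scn2a, -0.41 for Scn2b and -0.46 for Scn3b. Within the range shared by 2 SE and 3 Ctr libraries at 36 h, log2 differences were -0.66 for Scn2a, -0.63 for Scn8a, -0.81 for Scn2b and -1.85 for Scn3b. In the range shared by 1 library of each kind at 12 h they were -0.83 for Scn2a, -0.72 for Scn8a, -1.79 for Scn2b and -0.3 for Scn1a.

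The summed level of the 4 alpha genes, per kilobase of exon, was 60.7 ± 6.62 CPM in Ctr 12 h and 35.9 ± 5.17 in SE 12 h (SD, n = 3), with separate ranges. Of this sum, Scn8a gave 36 to 48.8% over the 24 libraries, Scn2a 28 to 41.2%, Scn1a 10.7 to 25.4% and Scn3a 3.02 to 10.9%. The 3 beta members changed in proportion as well as in sum. Scn3b gave 42 to 49% of the beta sum in SE 12 h, against 23.6 to 34.4% in Ctr 12 h and 25.9 to 27.6% in SE 24 h, while Scn2b gave 42.2 to 49.8% in SE 12 h against 63.1 to 73% in Ctr 12 h. Scn2b and Scn3b had similar levels at 12 h after SE, 25.5 ± 1.87 and 25.2 ± 1.77 CPM per kilobase. These shares are given with no test.

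The gene Gm13630, a long noncoding RNA on the strand opposite Scn1a (chr2:66239217-66251932), shares 101 exonic bases with Scn1a, or 0.872% of its exons. It read 43.9, 95.1 and 138 CPM in SE 6 h and 21.9, 21.5 and 63.3 CPM in SE 12 h, against 0.375 to 6.14 CPM in the 9 controls. All 6 early SE libraries were far above all controls. Its Log2FC was 5.63 at 6 h (s.e. 0.35, adjusted p = 5.29e-10) and 4.31 at 12 h (0.51, 2.82e-06), and it was back at 2.65, 2.31 and 3.43 CPM at 24 h (0.57, adjusted p = 0.312). It was named after its values were seen. The libraries did not keep strand, so reads in the shared bases cannot be assigned to either gene. A further antisense gene at the Scn1a start, Gm13629, shares 416 bases (3.59% of Scn1a exons) and did not pass at any time.

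Rest, the RE1-binding repressor introduced above, read 2.39 to 7.34 CPM in the 9 controls. It read 16.1, 26 and 14 CPM at 6 h after SE, 20, 21.5 and 23.4 at 12 h, 21, 15 and 19.1 at 24 h, 13.5, 16.9 and 16.2 at 36 h, and 11.7, 11.3 and 13.6 at 72 h. No SE library overlapped a control. Rest rose at each time, with a Log2FC of 2.02 at 12 h (s.e. 0.21, adjusted p = 7e-07), 1.67 at 36 h (5.09e-06) and 1.29 at 72 h (0.000291). Of the 2 members with an RE1-like match, Scn2a fell at all 5 times and Scn3b at 6, 24, 36 and 72 h but not at 12 h (-0.4, adjusted p = 0.178). Of the members with no match in the searched window, Scn2b also fell at all 5 times, Scn8a at 6, 12, 24 and 36 h, Scn3a at 6 and 24 h, and Scn1a at 12 h. The part of REST in these values was not tested.

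**Figure D4:**
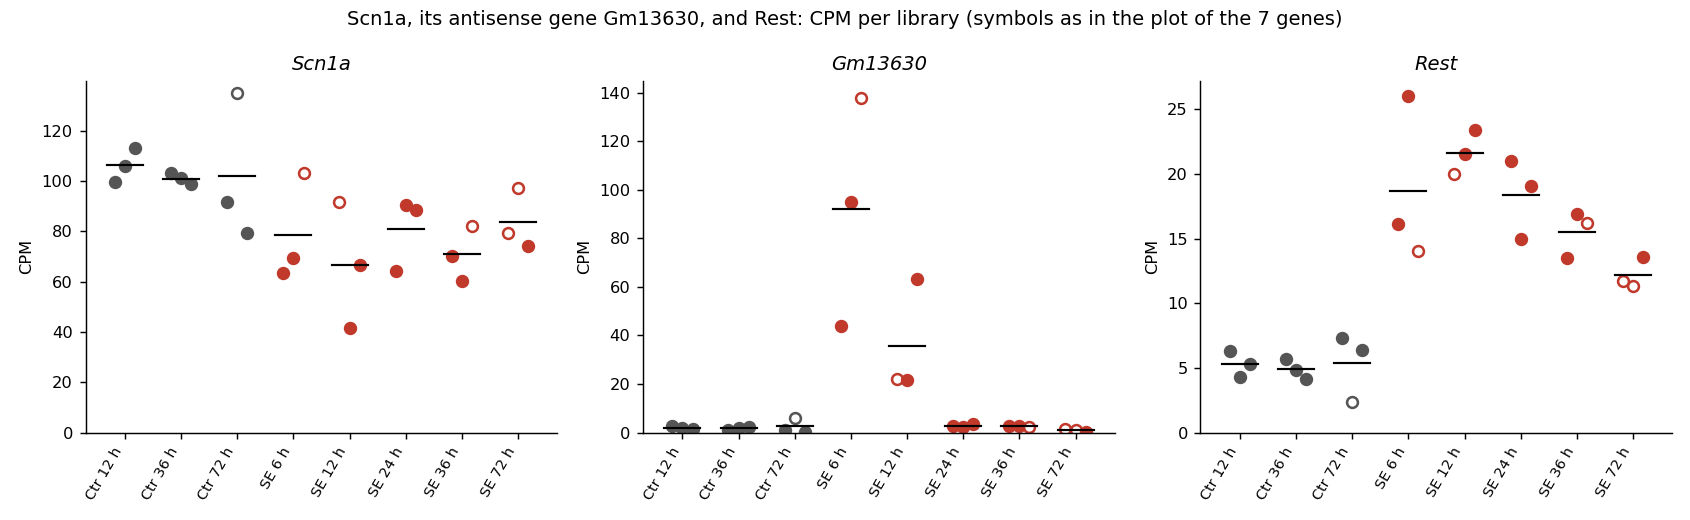
Levels of Gm13630, of Scn1a and of Rest in every library by group, in CPM on linear axes from 0, with points and bars as in the plot of the 7 genes. Gm13630 stood at 21.5 to 138 CPM at 6 and 12 h after SE against 0.375 to 6.14 in controls, and Rest stayed above its controls at all 5 times.

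Of 7 other alpha subunit genes and relatives, 2 rose and 1 fell at 12 h, and 1 fell at 36 h and at 72 h. The gene that fell was Nalcn, the sodium leak channel, with 105 to 120 CPM in Ctr 12 h and 36.3 to 63.1 CPM in SE 12 h (Log2FC -1.22, s.e. 0.17, adjusted p = 1.35e-05). It fell also at 36 h (-0.96, 0.00017) and 72 h (-0.55, 0.0171). Scn4a, the skeletal muscle channel gene, rose at 12 h (3.61, s.e. 1.04, 0.00962) on counts of 1, 0 and 4 in controls and 32, 31 and 11 after SE. Scn11a passed at 12 h (6.14, s.e. 2.25, 0.0369) on the ganglion-high library, which read 62.7 CPM.

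Of 15 genes for fibroblast growth factor homologous factors (FHFs), which bind the channel tail, and other binding partners, 8 fell and 1 rose at 12 h, 7 fell and 1 rose at 36 h, and 6 fell and 1 rose at 72 h. Their median Log2FC was -0.58, -0.37 and -0.35. Fgf14, an FHF of the axon initial segment, fell at the 3 times (-0.82, -1.09 and -0.89, adjusted p = 0.000386, 2.62e-05 and 0.000345). Fgf11 fell at 12 h (-1.16, s.e. 0.25, 0.000965) and Calm3, a calmodulin gene, at 36 h (-1.08, s.e. 0.15, 1.42e-05). The gene that rose was Tnc, an extracellular matrix protein gene, which read 4.29 to 9.4 CPM in Ctr 12 h and 41.8 to 55.6 CPM in SE 12 h. Its Log2FC at 12, 36 and 72 h was 2.86 (1.93e-05), 3.65 (9.87e-07) and 2.36 (0.000392), and it was 5.17 at 24 h against the mean of controls (2.12e-11).

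Of 12 genes of the scaffold at axon initial segments and nodes, 2 rose and 4 fell at 12 h, 5 fell at 36 h, and 2 rose and 3 fell at 72 h, with medians of -0.01, -0.04 and -0.15. Cntnap2, a neurexin family adhesion gene, fell at the 3 times (-1.08, -1.16 and -0.74, adjusted p = 0.000534, 0.000296 and 0.0138), as did Cntnap1 (-0.81, -1.01 and -0.49, adjusted p = 0.00115, 0.000186 and 0.0425). Nfasc, the neurofascin gene, rose at 72 h (0.64, s.e. 0.15, 0.00397), and Csnk2a2, a casein kinase subunit gene, rose at 12 h (0.57, s.e. 0.11, 0.000432). Ank3, the ankyrin-G gene, was named after its values were seen and rose at 12 h (0.48, adjusted p = 0.0091). Of 10 RNA-level regulators, 2 rose and 1 fell at 12 h, 1 rose and 2 fell at 36 h, and 1 rose and 3 fell at 72 h. Beside Rest, Rbfox1, a splicing factor gene, fell at 12 h from 203 to 461 CPM in controls to 70 to 128 CPM (-1.71, s.e. 0.25, 3.03e-05) and at 36 h (-0.74, 0.0254). Srrm4, a splicing factor of neuronal microexons, rose at 12 h (0.66, s.e. 0.17, 0.00439), and Celf4 fell at 72 h (-0.61, 0.00503).

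**Figure D5:**
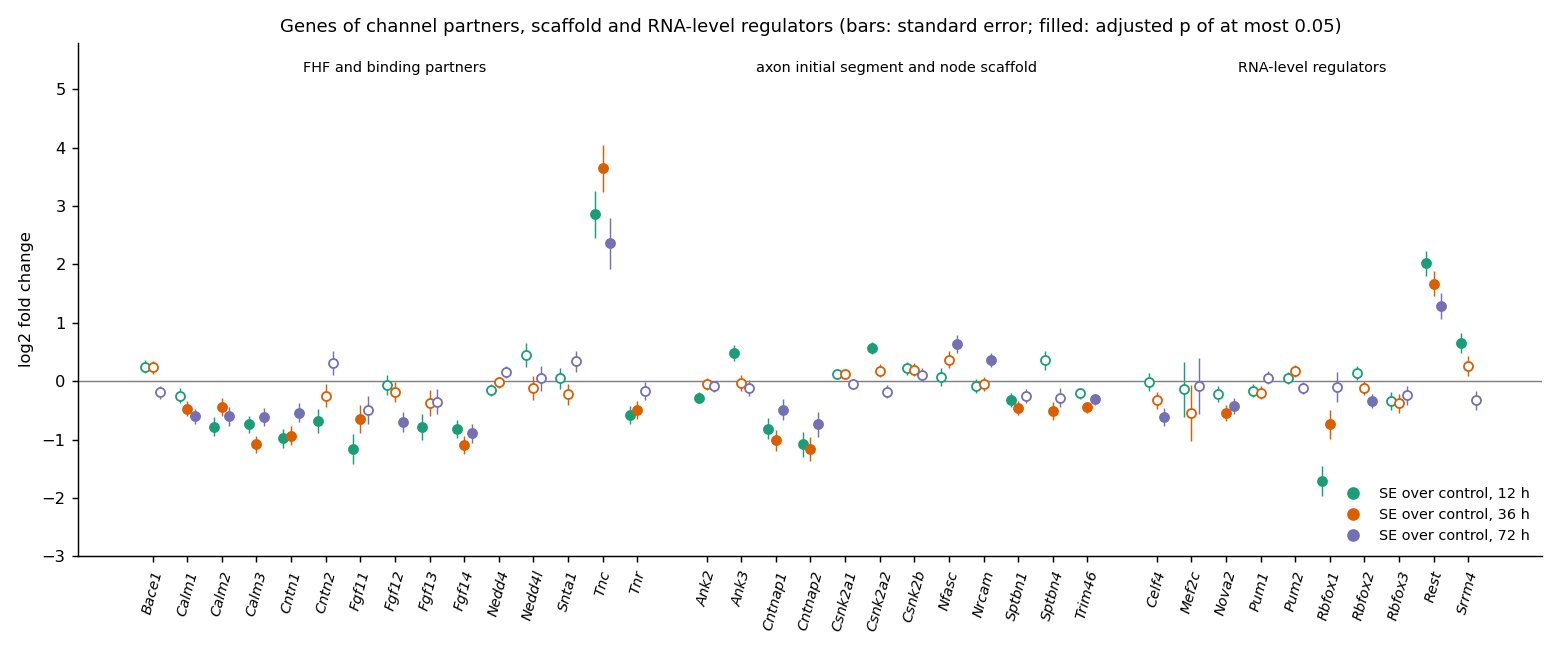
Log2 fold change of SE against the time-matched control at 12, 36 and 72 h for all genes of the lists of channel partners, scaffold genes and RNA-level regulators, with bars of 1 standard error and filled points at an adjusted p of at most 0.05. Fgf14 and Cntnap2 lie below 0 at the 3 times, whereas Tnc and Rest lie above it.

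Over the 24 libraries and 13749 genes whose mean log2 CPM reached 1, the genes with the most similar pattern were ranked by Pearson's r of log2 CPM. The libraries share the SE and Ctr groups and differences in depth and cell makeup, so r is a description. For Scn2a, Bri3bp (0.948) and Dnal1 (0.92) were among the nearest 3, and its nearest member was Scn2b (0.9), at rank 10. For Scn2b the nearest were Ppp3cb, a calcineurin catalytic subunit gene (0.94), Rnft2 (0.937) and Enpp5 (0.936), and for Scn8a they were Plcb1 (0.924), Celsr2 (0.915) and the potassium channel gene Kcnq3 (0.914), with Scn2b at 0.866. Scn3b was nearest to Grin2b, an NMDA receptor subunit gene (0.924), Camk2a (0.923) and Fam131a (0.922), and its nearest member, Scn2a, reached 0.716. Scn1a was nearest to Pde11a (0.862), Kif3a (0.857) and Dnm3 (0.852), with Scn2b at 0.637. Scn3a had Fcsk (0.866) and Hace1 (0.848) among its nearest 3, with Scn2a at 0.552. Scn4b was nearest to Pirt, a gene of sensory neurons (0.92), Susd2 (0.911) and Grik1 (0.904), and its nearest member was Scn1a at 0.602.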

How the data were processed

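RNA from CA1 dissected out of 400 µm slices was sequenced after poly(A) selection on an Illumina HiSeq1500 (paired reads, kit without strand). The authors trimmed reads with Trim Galore 0.6.6, aligned them to GRCm39 with STAR 2.7.8a, used SAMtools 1.10 and counted reads per GENCODE M26 gene without strand with HTSeq 0.13.5. The deposited table holds these raw counts, with 18647 genes by 24 libraries. Symbols, positions and exon lengths came from GENCODE M39 (GRCm39), which matched 18552 of the IDs and left 95 unmatched.

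Counts were filtered with filterByExpr over the 8 groups and scaled by TMM, and 18153 genes were fitted with edgeR 4.0.16 in R 4.3.3 (quasi-likelihood, 1 term per group and 1 RUVr factor, all 24 libraries). The RUVr factor was 0.797 in Ctr 72 h replicate 2, and -0.383 and -0.374 in replicates 1 and 3 of that group. In all other libraries it lay between -0.102 and 0.136, so it mainly took up spread within Ctr 72 h. P-values were adjusted by Benjamini-Hochberg over all genes tested. "Rose" and "fell" mean an adjusted p of at most 0.05. DEGs also had a Log2FC of at least 0.66 in size against controls, or 1 between SE times. A standard error is the Log2FC divided by the square root of the test's F. CPM used TMM library sizes. The labels do not say that the 3 libraries of a group came from separate animals, so p-values measure only the spread between these libraries. No libraries agreed within sampling noise (lowest chi-square per gene 4.77 within a group).

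In each pathway list (other alpha subunits, FHFs and partners, scaffold, RNA-level regulators), at most 4 genes past the test at 12, 36 or 72 h were named, by the largest Log2FC in size, and for each member the 3 nearest genes and the nearest member by r. Some genes that this rule selects are not reported here. The members and lists were chosen with earlier results of these data known. On simulated counts for SE 12 h against Ctr 12 h (17313 genes), 16 of 95 genes changed by 0.66 log2 units and 55 of 92 changed by 1.5 were recovered, and 3 of 17126 unchanged genes were called. Alternatives were other normalizations, filters, tools (DESeq2 1.42.0, limma-voom 3.58.1), covariates, thinned counts and each library left out.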

Additional observations from a re-analysis of the deposited data

Results flagged for a closer look

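Effects of SE that differed between times, by a test of the difference itself, were found for Scn2b and Scn3b. The Log2FC of Scn2b was less negative at 36 h than at 12 h by 0.69, and less negative at 72 h than at 12 h by 0.83. The Log2FC of Scn3b was more negative at 36 h than at 12 h, with a difference of -1.42. Both differences between 36 and 12 h lost their call in some fits that left out a single library, as listed above. That of Scn2b between 72 and 12 h kept its call in all such fits. The Scn3b controls were themselves higher at 36 h, with a Log2FC of 0.53 from Ctr 12 h to Ctr 36 h that did not pass (adjusted p = 1).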

How the results depend on the processing

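Over the alternatives, 782 of 863 Log2FCs of members kept their direction and side of the threshold, 36 lost it, 17 gained it and 28 changed sign, of which 23 were of Scn4b and none of Scn2a, Scn2b or Scn3b. None of the 28 was past the test. Scn2a and Scn2b kept their calls at 12, 36 and 72 h in every fit that left out 1 library. Of 505 counts of members, 451 were within 1.5 times the value reported. The cause of the changes below was not tested.

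With library size alone, DEGs numbered 2 at 12 h, 1 at 72 h and 4 at 6 h, and the median Log2FC of all genes moved to 0.13 at 36 h and 0.14 at 72 h. With at least 10 counts required in every library, DEGs numbered 2 at 12 h and 1 at 72 h. With DESeq2, 2 members passed from 12 to 24 h, and without the RUVr factor 1 passed between the effects at 36 and 12 h. With the label range as a factor, 0 passed and 0 were DEGs at 72 h, 3 passed at 6 h and 3 at 24 h, 2 between the effects at 72 and 12 h, and 1 in Ctr 72 h against Ctr 36 h. With only the compared groups in the fit, 0 passed from 6 to 12 h (0.562% of all genes), 1 passed in Ctr 36 h against Ctr 12 h (3.25%) and 5 passed in Ctr 72 h against Ctr 36 h (20.1%). With counts thinned to the smallest library, 2 were DEGs at 24 h and 1 passed between the effects at 36 and 12 h. Without the 6 ganglion-high libraries, DEGs numbered 0 at 72 h, 4 at 6 h, 4 at 24 h, 1 from 6 to 12 h and 1 from 12 to 24 h, where 3 passed; where 1 library of a group was left, it was assumed to vary like the other groups. With the ganglion sum as the factor, 2 passed from 6 to 12 h and 2 from 12 to 24 h, 1 of each being a DEG, and 1 passed between the effects at 36 and 12 h.

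With 1 library left out, DEGs ranged between 2 and 5 at 12 h, between 1 and 3 at 72 h, between 2 and 4 at 6 h, and between 1 and 4 at 24 h. Members past the test ranged from 3 to 5 at 24 h, 0 to 1 from 6 to 12 h, 0 to 2 between the effects at 36 and 12 h, 1 to 2 between those at 72 and 12 h and 0 to 1 between those at 72 and 36 h. They ranged from 0 to 1 between Ctr 72 h and each other control time.

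The Log2FC of Scn4b changed sign at 12 h without the RUVr factor (0.26) and with thinned counts (0.01). At 24 h it was 0.51 with the label range and 0.17 without the ganglion-high libraries, and at 36 h it was -0.97 without them and -0.58 with the ganglion sum. At 72 h it was -0.02 with the stricter filter, -0.08 with DESeq2, -0.62 without the RUVr factor, -0.08 with thinned counts and -0.65 both without the ganglion-high libraries and with their sum. With 1 library left out it lay between -2.12 and 0.47 at 12 h, between -0.54 and 0.21 at 24 h, between -0.97 and 1.28 at 36 h, and between -0.66 and 1.2 at 72 h. At 72 h, Scn1a (0.25) and Scn8a (0.13) changed sign with the label range, and Scn3a without the ganglion-high libraries (-0.37), with a range of -0.11 to 0.39 over fits leaving out 1 library.

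Deviations from the group means correlated at -0.201 to 0.181 between same-numbered SE and Ctr libraries. With 3 libraries per group, these values cannot decide whether the numbers mark pairs, which the labels do not say. With a replicate block, Scn3a passed at 36 h (-0.67, adjusted p = 0.0389), Scn2b was at -1.5 at 12 h (4.29e-07), and no other call of a member against controls changed. Per kilobase of the longest coding transcript, levels in Ctr 12 h were 12.2 CPM for Scn1a, 32.8 for Scn2a, 4.71 for Scn3a and 34.9 for Scn8a, with the order of the 7 genes kept. The self-test held 95 and 92 changed genes, drawn at random over all levels, among 17313. In the data 38.5% of genes passed at 12 h, so its recovery rates need not hold for the members. A member that did not pass is not shown to be unchanged.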
